A study of Mus musculus with 104 samples.

Results

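The hypothalamus of aged BALB mice was compared with that of young BALB mice, using 13 of the 104 arrays of the series. The aged group holds 6 males of 20-23 months by the labels (20-21 months in the study's methods), and the young group holds 7 males of 2-3 months. Another 5 males of 12-13 months, here called middle-aged, entered the normalization and the fit. All came from an aged rodent colony, were housed singly and were decapitated after their behavior had been monitored in the home cage. RNA of the whole hypothalamus was amplified once, labeled with Cy3 and hybridized in 1 color to Agilent whole mouse genome arrays, 1 array per mouse. The study prepared each sample in duplicate and chose 1 of the duplicates at random. In bulk tissue, fewer cells of a type and less RNA per cell cannot be told apart, and p-values measure the spread between these mice.

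The hypothalamus sets hunger, body weight, fluid balance, body temperature, daily rhythm and reproduction through small groups of peptide neurons. Arcuate neurons that make Agrp and Npy drive feeding and neighboring Pomc neurons restrain it. Gnrh1 neurons drive the pituitary-gonadal axis, and the RFamide peptides encoded by Npvf act on them. Microglia, the resident phagocytes, sense debris through Fc receptors, Trem2 and Toll-like receptors, and complement proteins tag material for their uptake. The comparison asks which transcripts of this region differ between young and aged mice of a strain whose feeding the study examined.

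Signals are normalized log2 values, so a difference of 1 is a doubling. After the removal of dim probes, 18955 genes were tested, and a gene is said to rise or fall when limma gave at least 1 of its probes log posterior odds (B) above 0. This held for 173 genes, 0.913% of those tested, of which 159 were higher in aged mice (0.839%) and 14 were lower (0.0739%). Of the 173, 132 also passed a Benjamini-Hochberg adjusted p of 0.05 in limma, while 1767 genes had an unadjusted p under 0.05. Most differences were small, with a median size of 0.70, and 130 of the 173 genes changed by less than 2-fold. The aged and young arrays did not overlap for 106 of the 173 genes, compared with 0.881% of all genes tested. In the middle-aged mice, the level lay between those of young and aged mice for 142 of the 159 higher and 13 of the 14 lower genes, at a median of 51.8% and 62.8% of the way.

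A pair of arrays stood apart. Young array 1 had 89.3% of its probes well above background, compared with 61.0% to 70.6% in the other young arrays, and without it 219 genes passed. Aged array 2 carried by far the highest signals of anterior pituitary hormones, which also varied among the other arrays. The mean level of the pituitary list ran from 4.71 to 10.24 over young arrays and from 5.73 to 15.23 over aged arrays. Growth hormone (Gh) reached 17.93 there, compared with at most 12.13 on any other aged or young array, and prolactin (Prl) reached 17.45, compared with at most 13.86. Without this array 172 genes passed, and without both 255, a fit added after the data had been seen. Arrays were scanned on 3 days that each held both ages, and the difference within a day, taken at each gene's best-scoring probe, had the overall sign for 173, 173 and 172 of the 173 genes. Among all genes tested that share was 62.8%, 79.8% and 65.1%. The 173 genes were called on these same arrays, so the agreement follows largely from that choice and is no separate support. Day 1 held 1 aged array, the one with the highest pituitary signals, and day 3 held 1 young array. Within slides that held both ages, the brightest probes had the overall sign for 172, 163 and 172 of the 173 genes (72%, 63.9% and 62.8% of all genes). The slide with 163 compared 1 aged array with young array 1 alone. The last slide held the same arrays as scan day 1, so it is not a further check. Markers of hypothalamic neurons were measured as labeled: 16 of 17 were tested, none passed in either direction, and their median difference was -0.02.

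A group of complement genes rose in the aged hypothalamus. Of 23 listed members 21 were tested, 7 rose and none fell (33.3%, against 0.913% of all genes). A difference above 0 was found for 19 (against 10416 of all 18955 genes), and the median difference was 0.43 against 0.02 over all genes. C3, the protein on which the complement pathways converge, ranged from 9.58 to 10.35 (median 9.90) in young mice and from 11.36 to 12.21 (median 12.13) in aged mice. These ranges were well separated, and C3 was 3.89-fold higher in aged mice (log2 difference 1.96, SE 0.17, adjusted p = 1.33e-05), with middle-aged mice between them at a median of 11.25. Within the 3 scan days the C3 difference was 1.49, 1.96 and 1.99. C1qa, a chain of the C1q recognition protein, ranged from 11.58 to 11.92 in young mice and from 12.18 to 12.55 in aged mice, also without overlap (difference 0.63, SE 0.07). C1qb (0.58, SE 0.10) and C4b (0.74, SE 0.13) rose as well. C4b has a near-identical copy, C4a, so its probe may read both.

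Itgax, the alpha chain of complement receptor 4 and a marker of dendritic cells and of microglia near lesions, had the largest rise of the list. It ranged from 4.12 to 5.75 (median 5.31) in young mice and from 7.65 to 8.77 (median 7.89) in aged mice, a 6.59-fold difference with no overlap (log2 difference 2.72, SE 0.23, adjusted p = 1.33e-05). C1qc and Cfi passed less firmly. C1qc, the third C1q chain, ranged from 10.92 to 11.61 in young mice and from 11.45 to 12.23 in aged mice (0.58, SE 0.13, adjusted p = 0.0613), and kept B above 0 in only 3 of the 13 fits that left out an aged or young array, with differences from 0.49 to 0.65. Cfi, a protease that inactivates C3b, was dim in young mice (2.16 to 4.74), brighter in aged mice (4.92 to 7.32), and kept its call in 6 of those fits, with differences from 1.63 to 2.19. C2, a protease of the classical pathway, did not pass (0.31, SE 0.13).

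**Figure D1:**
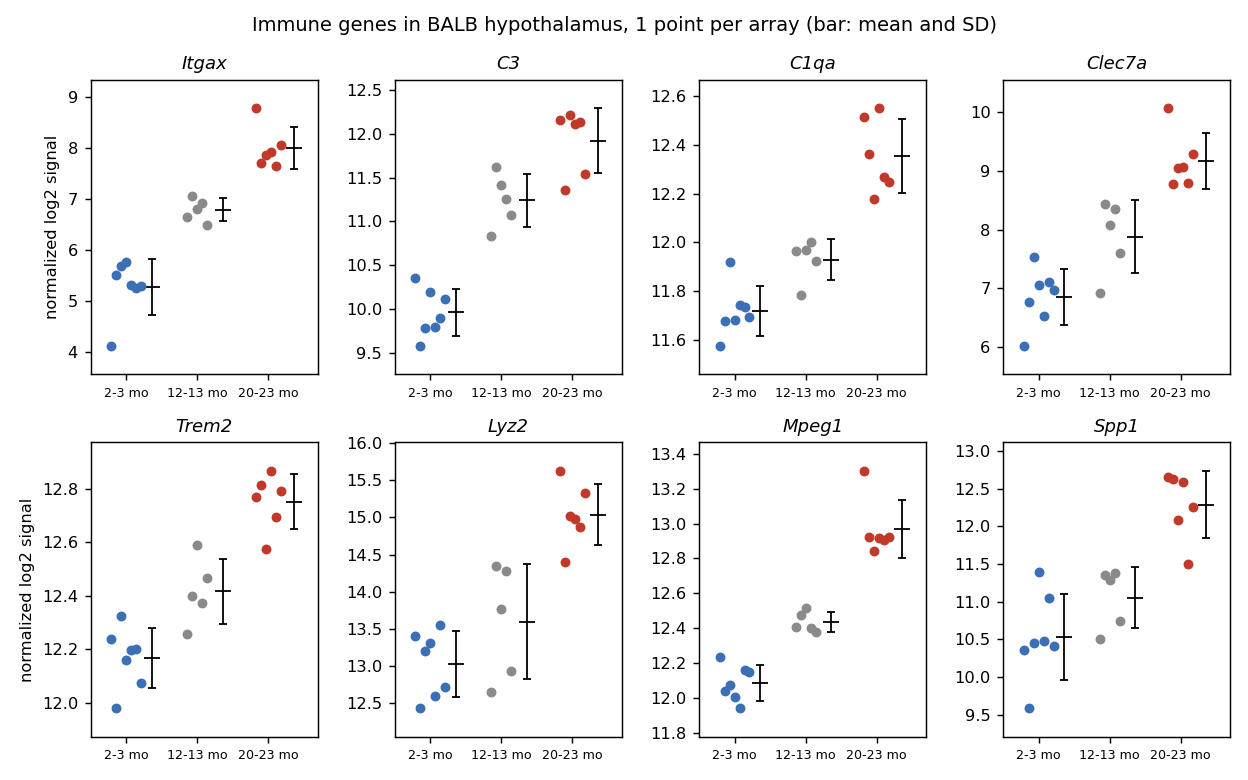
Normalized log2 signal (vertical axis, own scale per gene) of 8 immune genes in young, middle-aged and aged BALB hypothalamus. Each point is 1 array (7, 5 and 6) and each bar is the mean with its SD. In all 8 panels every aged array lies above every young array, for example from 12.84 for Mpeg1 in aged mice against at most 12.24 in young mice. Among all genes tested, the ages did not overlap for 0.881%.

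Several Fc receptors and the ITAM adaptors that carry their signal rose as well. All 8 members that passed rose, of 22 tested among 25 listed (36.4%, against 0.913% of all genes). A difference above 0 was found for 21 of the 22, against 10416 of all 18955 genes, and the median difference was 0.52. Clec7a, the beta-glucan receptor dectin-1, ranged from 6.02 to 7.52 (median 6.98) in young mice and from 8.78 to 10.07 (median 9.06) in aged mice (2.32, SE 0.27, adjusted p = 0.000613). Pirb, an inhibitory receptor for MHC class I that older annotation names Lilrb3, ranged from 6.88 to 8.05 in young mice and from 8.13 to 9.44 in aged mice (1.35, SE 0.20), and both of its probes passed. Both genes were thus separated between the ages on every array. Pirb belongs to a family of closely similar receptors that 60-mer probes may not tell apart.

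The shared adaptors rose less, but with little spread. Tyrobp, the ITAM adaptor DAP12, ranged from 10.76 to 11.41 in young mice and from 11.65 to 11.98 in aged mice (0.70, SE 0.10). Its partner Trem2, a lipid receptor, ranged from 11.98 to 12.33 and from 12.58 to 12.87 (0.59, SE 0.07, adjusted p = 0.000801). Fcer1g, the common gamma chain of Fc receptors, rose by 0.50 (SE 0.07) and the activating receptor Fcgr3 by 0.53 (SE 0.08), although only 1 of the 2 Fcgr3 probes passed. The inhibitory receptor Fcgr2b rose by 0.77 (SE 0.12) on 2 of its 3 probes. Cd300lf, a receptor for phosphatidylserine, was dim and overlapped between the ages (3.50 to 5.65 against 5.35 to 7.06), with a difference of 1.61 (SE 0.32).

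Genes of disease-associated microglia, the state described around plaques and lesions, held the largest share of called genes among the lists. Of 21 tested among 23 listed, 9 rose and none fell (42.9%, against 0.913% of all genes), with a median difference of 0.38. The young and aged arrays of all 9 did not overlap. This also held for 106 of all 173 called genes and for 0.881% of all genes tested. Lists share members: Itgax was also counted under complement, and Clec7a, Tyrobp and Trem2 under Fc receptors. The shares of these lists are therefore not separate results. Gpnmb, a glycoprotein of lipid-laden phagocytes, could be told from background on all 6 aged arrays but on 0 of the 7 young ones, so only a bound can be given: it was at least 10.4-fold higher in aged mice. Gpnmb entered the test through its aged arrays alone, so it had to differ and adds nothing to the count of the list. Spp1 (osteopontin) ranged from 9.58 to 11.39 (median 10.46) in young mice and from 11.50 to 12.66 (median 12.42) in aged mice (1.76, SE 0.26). Lgals3, a galactose-binding lectin, ranged from 8.40 to 9.28 and from 9.99 to 11.20 (1.65, SE 0.21). Cybb, the catalytic chain of the phagocyte NADPH oxidase, rose from a level that only 3 of the 7 young arrays could tell from background. A tested probe needed 6 arrays above background, which Cybb reached only with its aged arrays. The filter thus favored a rise, so Cybb adds nothing to the count of the list, and its size is uncertain (2.15, SE 0.34). The chemokine Ccl6 rose by 0.82 (SE 0.12). Apoe, a lipid carrier that astrocytes make in bulk, was bright at both ages and did not pass (0.12, SE 0.06, adjusted p = 0.613).

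Promoter sequences of genes that rose were searched for the words of phagocyte and interferon-responsive factors, and 5 are shown because they carry these words in genes that moved together here. RefSeq windows of 250 bases before the gene start (GRCm38.p6) matched 11402 of the tested genes, some with several starts, and 104 of the 159 that rose. The PU.1 word, GAGGAAGT on either strand, is bound by a factor that myeloid cells need. It occurred before at least 1 start of 9 of the 104 genes (8.65%) and in 302 of all 11402 (2.65%). The interferon word, on either strand, reads GAAA, then any 2 bases, then GAAA, and occurred in 7 (6.73%) and in 365 (3.2%). An NF-kB motif occurred in 16 (15.4%) and in 1236 (10.8%), and an E-box word used for comparison, CACGTGAC, in 0 and in 412 (3.61%). These counts describe letters only. The comparison word was not matched to the others in base content, so its share is no baseline for theirs. Capitals mark the words, and each sequence runs 5′ to 3′ on the gene's strand.
Spp1, chr5:104434861-104435110, plus strand, PU.1 word: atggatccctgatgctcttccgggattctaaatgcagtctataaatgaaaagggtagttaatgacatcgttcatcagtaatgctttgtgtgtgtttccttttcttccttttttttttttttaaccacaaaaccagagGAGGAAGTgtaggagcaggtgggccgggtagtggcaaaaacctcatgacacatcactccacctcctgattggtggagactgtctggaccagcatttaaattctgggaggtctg
C1qc, chr4:136892915-136893164, minus strand, PU.1 word on the opposite strand: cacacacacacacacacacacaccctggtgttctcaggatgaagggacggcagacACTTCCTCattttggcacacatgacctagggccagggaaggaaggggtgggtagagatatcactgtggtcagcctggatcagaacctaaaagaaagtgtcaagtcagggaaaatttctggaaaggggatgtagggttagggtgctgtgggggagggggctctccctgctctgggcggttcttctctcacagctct
Pirb, chr7:3720383-3720632, minus strand, PU.1 word: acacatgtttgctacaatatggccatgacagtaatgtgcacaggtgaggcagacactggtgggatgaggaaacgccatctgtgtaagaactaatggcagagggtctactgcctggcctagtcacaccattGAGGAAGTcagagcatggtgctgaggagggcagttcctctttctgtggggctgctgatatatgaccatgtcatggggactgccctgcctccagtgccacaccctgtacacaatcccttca
Cybb, chrX:9469325-9469574, minus strand, interferon words: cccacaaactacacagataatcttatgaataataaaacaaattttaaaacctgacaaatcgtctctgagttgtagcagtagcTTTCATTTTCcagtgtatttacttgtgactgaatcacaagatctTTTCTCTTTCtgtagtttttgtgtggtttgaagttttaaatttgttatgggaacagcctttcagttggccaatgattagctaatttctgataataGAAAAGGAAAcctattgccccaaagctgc
Ctss, chr3:95526536-95526785, plus strand, interferon word: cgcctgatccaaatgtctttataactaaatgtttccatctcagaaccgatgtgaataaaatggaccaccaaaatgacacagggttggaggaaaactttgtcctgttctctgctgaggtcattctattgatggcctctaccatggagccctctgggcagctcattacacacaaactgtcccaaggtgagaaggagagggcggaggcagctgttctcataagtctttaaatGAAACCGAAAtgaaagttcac
Spp1 was the only riser with both words, the interferon word reading tttccttttc on the printed strand upstream of the capitals. The word in Ctss began 21 bases before the gene start, whereas those in Cybb began 168, 124 and 29 bases before it.

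Genes of the lysosome and of phagocyte digestion rose in part. Of 28 tested among 29 listed, 7 rose (25.0%, against 0.913% of all genes) and none fell. A difference above 0 was found for 24 of the 28, against 10416 of all 18955 genes, and the median difference was 0.18. Gpnmb is 1 of the 7 and is shared with the list of disease-associated microglia. It entered the test through its aged arrays alone, so it adds nothing to this count either. Lyz2, the lysozyme of macrophages, ranged from 12.43 to 13.55 (median 13.20) in young mice and from 14.41 to 15.63 (median 15.00) in aged mice, a 4.02-fold rise without overlap (adjusted p = 0.00217). Its near-identical copy Lyz1 rose by 2.11 (SE 0.29), and probes may read both genes. Mpeg1, a pore-forming protein of macrophages, had the least spread for its size, from 11.94 to 12.24 in young mice and from 12.84 to 13.30 in aged mice (0.88, SE 0.07, adjusted p = 1.33e-05). Cd68, a lysosomal membrane protein of phagocytes, rose by 0.71 (SE 0.12). Ctss, a protease that trims the class II invariant chain and whose promoter is shown with the interferon word, rose by 0.50 (SE 0.08), but spots marked as outliers left 6 young and 3 aged arrays for it. Lamp2 rose by 0.36 (SE 0.08) on 1 of 3 probes, and lost its call without young array 1 or 7 or aged array 2, 3 or 4, with differences from 0.31 to 0.37.

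Toll-like receptors and other innate sensors contributed 6 risers of 21 tested among 25 listed (28.6%, against 0.913% of all genes), with a median difference of 0.40. None of the 6 overlapped between the ages, as held for 106 of all 173 called genes and 0.881% of all genes tested. Tlr2, a receptor for bacterial lipoproteins, ranged from 8.65 to 9.20 (median 8.94) in young mice and from 9.52 to 9.93 (median 9.64) in aged mice (0.77, SE 0.13). The endotoxin receptor Tlr4 ranged from 6.57 to 7.21 and from 7.23 to 7.91 (0.66, SE 0.13), and its co-receptor Cd14 from 8.83 to 9.18 and from 9.35 to 9.50 (0.40, SE 0.06). Receptor and co-receptor for endotoxin thus both rose without overlap between the ages. The inflammatory proteases Casp1 (0.52, SE 0.08) and Casp4 (0.82, SE 0.17) also rose, as did Ly86 (0.33, SE 0.07), the partner of the Toll-like protein Cd180. Without aged array 3 or 4, Casp4 lost its call (0.71 to 0.88 over all fits that left out an array), and so did Ly86 without young array 6 or aged array 2, 3 or 4 (0.30 to 0.36). Tlr9, which senses bacterial DNA, did not pass (-0.15, SE 0.12), and the adaptor Myd88 did not pass either (0.23, SE 0.07).

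Genes of reactive astrocytes had differences above 0 for all 15 members tested (against 10416 of all 18955 genes), with a median of 0.47. Only 4 passed (26.7%, against 0.913% of all genes) and none of these separated the ages fully. Osmr, the oncostatin M receptor, ranged from 8.04 to 9.03 (median 8.51) in young mice and from 8.63 to 9.85 (median 9.54) in aged mice (0.89, SE 0.18, adjusted p = 0.0311). Cd109 rose by 0.83 (SE 0.16) on 1 of 2 probes and the glycosyltransferase Ggta1 by 0.67 (SE 0.13). Timp1, an inhibitor of matrix metalloproteases, rose by 0.68 (SE 0.15) on 1 of 3 probes and kept its call in 5 of the 13 fits without an array, with differences from 0.60 to 0.77. The intermediate filament genes did not pass: Vim gave 0.76 (SE 0.21, adjusted p = 0.162) and Gfap 0.32 (SE 0.20). Among general astrocyte markers, 1 of 14 passed, the glycolytic enzyme Aldoc. The probe that passed gave 0.45 and the brightest one 0.17, and the call held in 8 of 13 fits without an array (brightest probe 0.12 to 0.20).

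**Figure D2:**
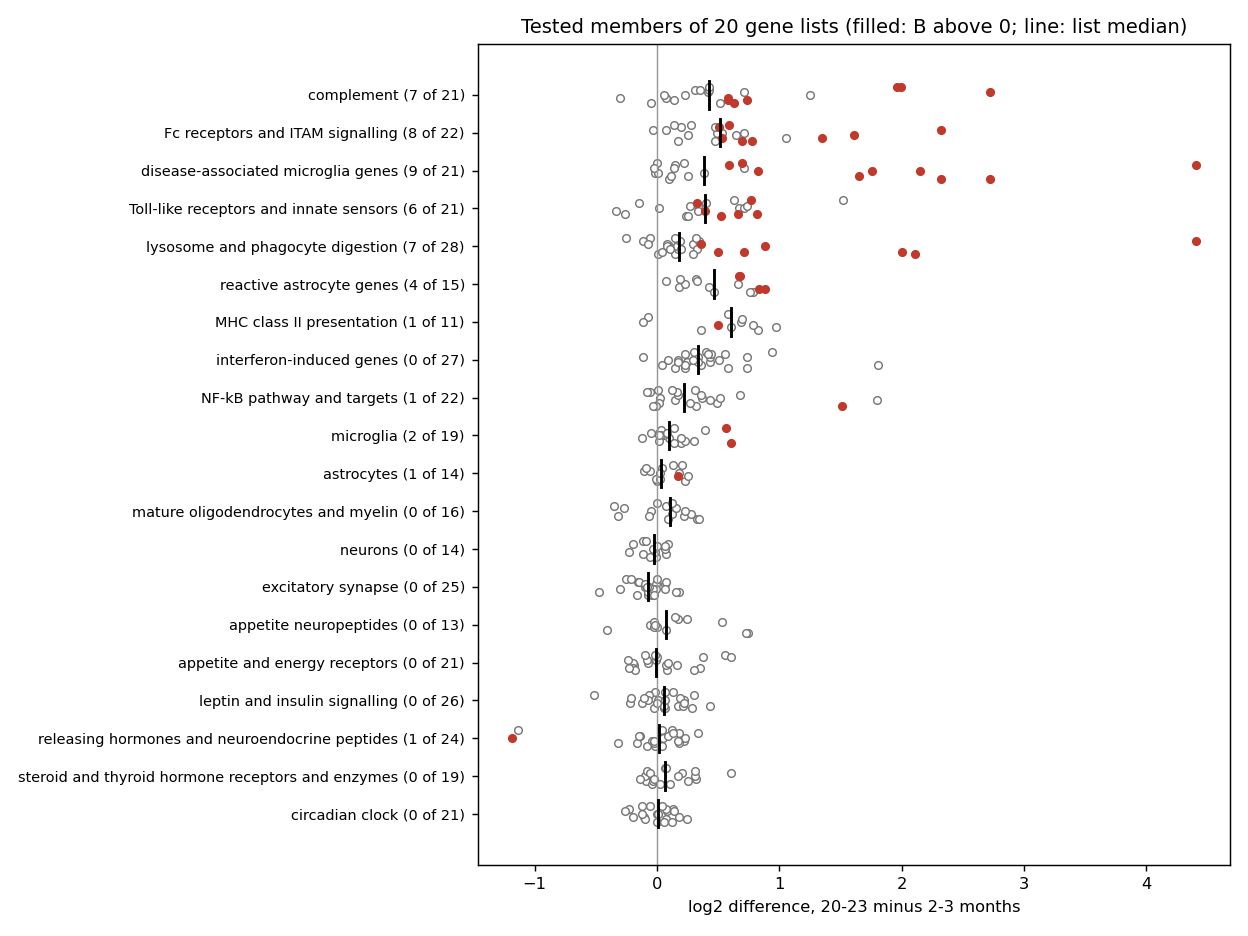
Log2 difference, aged minus young (horizontal axis), of each tested member of 20 gene lists (rows, with the number called of the number tested). Filled points are called genes, drawn at the brightest probe, and the vertical line is the list median, such as 0.52 for Fc receptors and ITAM signalling and -0.07 for the excitatory synapse.

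Antigen presentation and interferon lists had medians above 0. Of 12 tested genes that prepare peptides for MHC class I, 2 passed (16.7%, against 0.913% of all genes): the immunoproteasome subunits Psmb8 (0.80, SE 0.17) and Psmb9 (0.83, SE 0.19) rose, with overlap between the ages. Psmb8 lost its call without aged array 2, 4 or 5 (0.74 to 0.94 over all such fits) and Psmb9 kept its own in 2 of 13 (0.76 to 1.01). In the class II list, Ctss alone rose among 11 tested (9.09%), with a median difference of 0.60. Cd74, the invariant chain, varied from 9.18 to 11.39 in young mice and from 10.61 to 11.50 in aged mice and did not pass (0.83, SE 0.31). None of 27 interferon-induced genes passed, although 26 had a difference above 0 (against 10416 of all 18955 genes) and the median was 0.33. Of 22 genes of the NF-kB pathway, Il1b, which encodes the cytokine interleukin-1 beta, rose from between 3.51 and 5.34 in young mice to between 5.60 and 6.20 in aged mice (1.52, SE 0.21, adjusted p = 0.00144).

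Some marker genes of macrophages passed. Among 19 microglia markers 2 rose (10.5%, against 0.913% of all genes), the adhesion receptor Adgre1 (0.60, SE 0.11) and the leukocyte phosphatase Ptprc (0.57, SE 0.13), and the median difference was 0.10. Ptprc kept its call in 2 of 13 fits without an array, with differences from 0.50 to 0.66. The homeostatic markers P2ry12 (0.04, SE 0.12), Tmem119 (0.08, SE 0.08) and Cx3cr1 (0.02, SE 0.11) did not pass, and the summed linear signal of the list was 35623 to 42425 in young and 39948 to 48503 in aged mice. Of 9 markers of perivascular macrophages 1 rose (11.1%), Ms4a7, from between 5.20 and 6.69 to between 7.27 and 8.17 (1.61, SE 0.21). No marker of monocytes and neutrophils (6 of 12 tested), T and NK cells (10 of 15) or B cells (8 of 12) passed. Cd3d, Cd8a, Cd79a, Ms4a1 and Ccr2, which define these cells, were too dim to be tested. Of 16 markers of mature oligodendrocytes and 14 of neurons none passed. The part of cell numbers in the immune differences was not tested.

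Outside the lists, the largest risers with separated ages were secreted immune genes and a few others. Cxcl13, a chemokine for B cells, stood above background on 0 of the 7 young arrays and was at least 4.56-fold higher in aged mice. It, too, entered the test through its aged arrays alone. A probe set for the immunoglobulin heavy chain family VJ558 (Igh-VJ558), whose members are nearly identical, ranged from 3.82 to 7.36 in young mice and from 7.97 to 11.35 in aged mice (3.34, SE 0.61), with 3 of 5 probes passing. The chemokines Ccl8 (2.44, SE 0.38) and Ccl4 (2.34, SE 0.31) and Rgs1, a brake on chemokine receptor signals (1.90, SE 0.33), also rose. Ccl8 and Ccl4 were dim in young mice (3.77 to 5.47 and 2.64 to 4.78), which leaves their sizes less certain. Rgs1 could be told from background on all aged arrays but on only 1 young array, so its young level and the size of the difference are uncertain. It reached the 6 arrays needed for testing only with its aged arrays, which favored a rise. Cldn7, a tight junction protein of epithelia, ranged from 5.75 to 6.44 (median 6.17) in young mice and from 7.50 to 8.88 (median 7.92) in aged mice (1.87, SE 0.18, adjusted p = 4.84e-05), and middle-aged mice had already reached a median of 8.01. Markers of meninges and choroid plexus, tissues that border the hypothalamus, gave median differences of 0.27 (0 of 9 passed) and 0.19 (1 of 10 passed, the water channel Aqp1, at 1.49 with an SE of 0.35, and in 3 of 13 fits without an array, from 1.30 to 1.65). The meningeal sum was 6668 to 46802 in young and 10001 to 58958 in aged mice, and its part in these rises was not tested.

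Il33, Cebpd, Ucn and the protocadherins below were picked after their values had been seen. Il33, a nuclear cytokine of glia, ranged from 11.33 to 11.79 in young mice and from 12.16 to 12.46 in aged mice (0.72, SE 0.09, adjusted p = 0.000752). Cebpd, a stress-responsive transcription factor, rose by 1.05 (SE 0.21) and Atf3, a stress-induced transcription factor of the heat shock list, by 1.18 (SE 0.22), with overlapping ages. Ucn, a peptide of the corticotropin-releasing family that restrains feeding, was dim and stood above background in 3 of the 7 young mice and in all 6 aged mice. It ranged from 2.36 to 5.81 and from 5.59 to 6.58 (2.27, SE 0.43), so the size is uncertain. Ucn, too, reached the 6 arrays needed for testing only with its aged arrays, which favored a rise. The clustered protocadherins of the beta group are adhesion proteins that give neurons surface identity. Of 21 tested, Pcdhb2, Pcdhb3, Pcdhb6 and Pcdhb14 rose, where 0.913% of all genes passed. A difference above 0 was found for 17 of the 21, against 10416 of all 18955 genes, and the median was 0.31 against 0.02. Pcdhb14 ranged from 8.45 to 8.77 in young mice and from 9.07 to 9.52 in aged mice (0.70, SE 0.09), and Pcdhb2 from 4.47 to 5.63 and from 6.32 to 7.31 (1.24, SE 0.18). Pcdhb6 (0.41, SE 0.09) kept its call in 4 of 13 fits without an array. Family members resemble each other closely, so their probes may not be independent.

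Among the 14 genes that fell, a hypothalamic peptide gene, Npvf, combined a large size with clear separation. Npvf encodes RFamide-related peptides that act on gonadotropin release. It ranged from 6.96 to 7.82 (median 7.22) in young mice and from 5.71 to 6.49 (median 6.02) in aged mice, with middle-aged mice between them at a median of 6.61. The aged level was 0.439 times the young one (log2 difference -1.19, SE 0.20, adjusted p = 0.00622), and the gene passed in all 13 fits that left out an array. Within the 3 scan days the difference was -0.76, -1.20 and -1.38. The level lay below the median of 9.76 over all genes, and the difference shrank to -0.56 (adjusted p = 0.376) with spot medians and to -0.53 (adjusted p = 0.37) in the authors' table, where it did not pass.

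None of the other lower genes belonged to a list. Brca1, a DNA repair protein, ranged from 7.45 to 7.79 in young mice and from 6.86 to 7.36 in aged mice, without overlap (-0.51, SE 0.10, adjusted p = 0.021). It did not pass with spot medians (-0.33) or in the authors' table (-0.32). Krt15, an epithelial keratin, overlapped slightly, from 7.78 to 8.69 and from 7.28 to 7.81 (-0.68, SE 0.15), and kept its call in 7 of 13 fits without an array, with differences from -0.75 to -0.61. Lrat, which makes retinyl esters, stood above background in 6 of the 7 young mice but in 1 of the 6 aged mice, from 4.37 to 6.84 and from 3.39 to 5.59 (-1.62, SE 0.37, adjusted p = 0.0683), so its aged level is uncertain. Lrat could be tested only because of its young arrays, which favored a fall. Its call held in 4 of 13 fits without an array, with differences from -1.87 to -1.44.

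Gpr139, an orphan receptor, fell by 0.51 (SE 0.11) on 1 of 2 probes, with 6.36 to 6.76 in young mice and 5.72 to 6.32 in aged mice. Chst3, which sulfates chondroitin, fell by 0.41 (SE 0.09). Scai, a suppressor of cell invasion, fell by 0.44 (SE 0.09) on 1 of 4 probes, and Apcdd1, an inhibitor of Wnt signals, fell by 0.34 (SE 0.08) on 1 of 2. None of these ranges overlapped between the ages. Scai lost its call without aged array 2 or 4 (-0.48 to -0.39 over all such fits), and Chst3, Gpr139 and Apcdd1 kept theirs in 5, 6 and 4 of 13, with differences from -0.45 to -0.36, -0.56 to -0.44 and -0.39 to -0.31. Unnamed or provisional transcripts made up the remainder: TC1536100 (-0.56, SE 0.09), LOC669759 (-0.73, SE 0.16), ENSMUST00000088612 (-0.71, SE 0.16) and BC013561 (-0.49, SE 0.10). LOC669759 lost its call without aged array 1 or 4 (-0.80 to -0.65 over all such fits) and ENSMUST00000088612 kept its own in 3 of 13 (-0.81 to -0.62). For Sfmbt2 and Crb1, the probe that passed (-0.56 and -0.60) was not the brightest, which gave -0.31 and -0.30, and Crb1 kept its call in 5 of 13 fits (brightest probe -0.37 to -0.23). Thalamus markers, a neighbor of the dissected region, lay below 0 for all 10 genes tested, against 8539 of all 18955 genes (median -0.26, none passed). Their summed signal was 23125 to 52690 in young and 16465 to 53449 in aged mice, and their part in the lower genes was not tested.

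**Figure D3:**
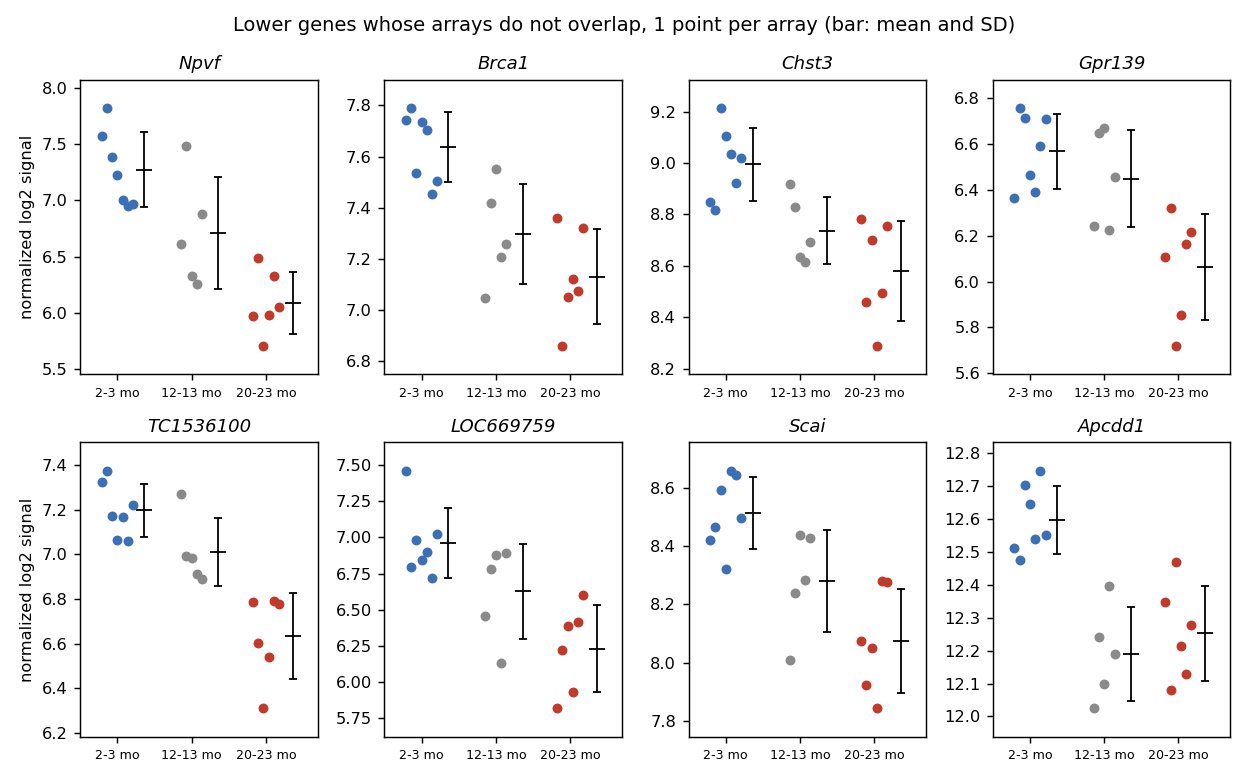
Normalized log2 signal (vertical axis, own scale per gene) of 8 genes that fell, in young, middle-aged and aged BALB hypothalamus. Each point is 1 array and each bar is the mean with its SD, and every aged array lies below every young array, as from 5.71 to 6.49 against 6.96 to 7.82 for Npvf.

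Apart from Npvf, no gene on the lists of hypothalamic peptides passed. Ucn is on neither list. Of 24 releasing hormones and neuroendocrine genes tested, Npvf fell and none rose (median difference 0.02). Gnrh1, the master peptide of reproduction, ranged from 9.05 to 10.17 (median 9.58) in young mice and from 7.61 to 9.35 (median 8.58) in aged mice. Its difference was nearly as large as that of Npvf but more variable and did not pass (-1.14, SE 0.28, adjusted p = 0.1). B exceeded 0 for Gnrh1 without aged array 1 (-1.31), with normexp background correction (-0.91) and with scan day as a block (-1.28), a fit added after the data had been seen. Kiss1, which encodes the peptide that excites Gnrh1 neurons, gave -0.32 (SE 0.17). Ghrh, which drives growth hormone (0.18, SE 0.16), its opponent Sst (0.13, SE 0.11), and the neurohypophysial hormones Oxt (-0.15, SE 0.16) and Avp (-0.17, SE 0.20) had overlapping ages.

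None of 13 appetite neuropeptides tested among 18 listed passed, with a median difference of 0.07. Npy, which drives feeding, came closest: it ranged from 10.49 to 11.34 (median 10.82) in young mice and from 11.30 to 12.07 (median 11.46) in aged mice (0.73, SE 0.18, adjusted p = 0.087). B exceeded 0 for Npy under 7 alternatives: normexp, spot medians, slide as a fixed or a random block, scan day as a block, array weights and the authors' table (differences 0.73 to 0.84). The same held without young array 2 (0.80). Agrp, made by the same neurons, gave 0.74 (SE 0.29, adjusted p = 0.45), and young array 1 (10.15) and aged array 5 (11.35) lay far above their groups. Pomc gave 0.54 (SE 0.53), a value set by the aged array with the highest pituitary signals, on which Pomc reached 18.12 against at most 15.16 on the other aged and young arrays. Without that array it was -0.10 (SE 0.29, adjusted p = 0.932). Nts, which restrains feeding, gave -0.41 (SE 0.14, adjusted p = 0.349), and the orexin gene Hcrt (0.17, SE 0.18), Pmch (-0.02, SE 0.11) and Cartpt (0.00, SE 0.12) lay near 0.

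**Figure D4:**
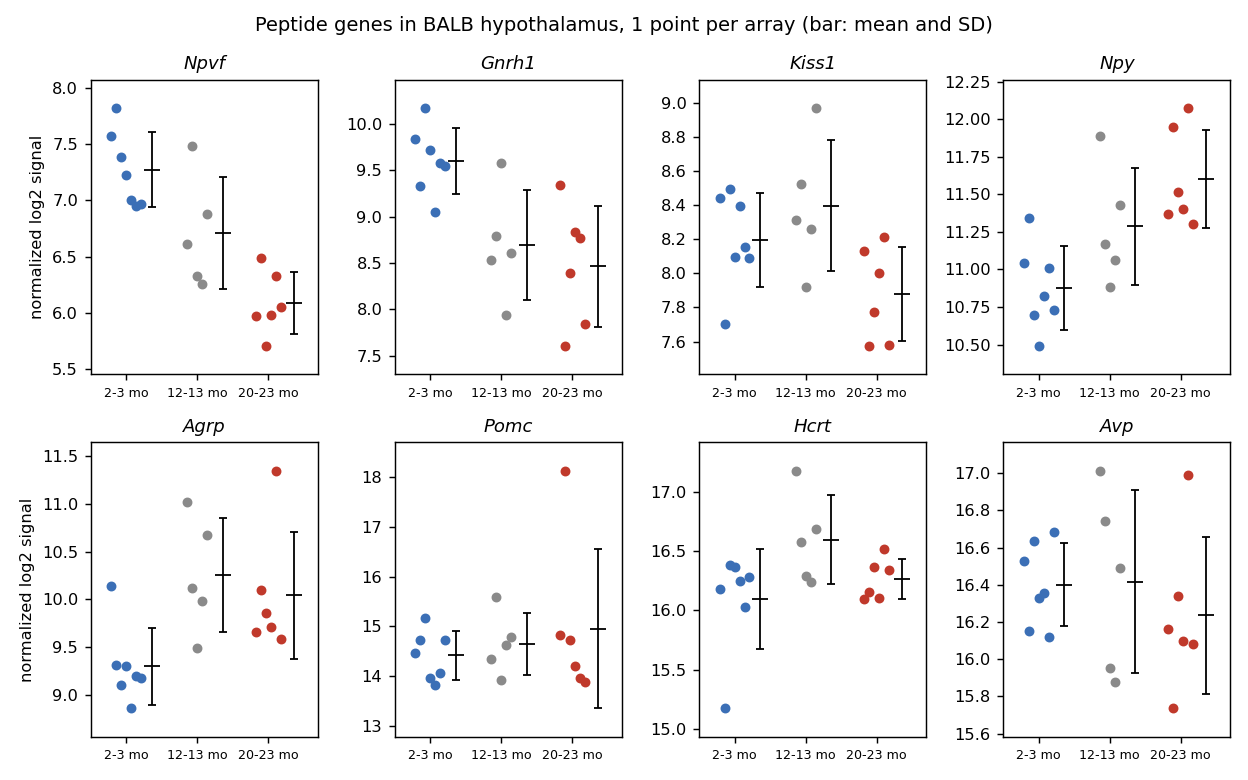
Normalized log2 signal (vertical axis, own scale per gene) of 8 peptide genes in young, middle-aged and aged BALB hypothalamus, 1 point per array with the mean and SD. Young and aged arrays separate for Npvf and overlap in the other panels, and 1 aged array stands alone for Pomc at 18.12.

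Receptors and intracellular pathways of energy balance showed no called gene. This held for 21 receptors of appetite and energy signals (median -0.003), 26 genes of leptin and insulin signalling (median 0.06), 19 steroid and thyroid hormone receptors and enzymes (median 0.07) and 21 circadian clock genes (median 0.01). The melanocortin receptor Mc4r gave -0.18 (SE 0.11) and the adiponectin receptor Adipor2 gave 0.35 (SE 0.11, adjusted p = 0.308). The leptin receptor probe for Lepr was dim, with 3.04 to 6.26 in young and 4.31 to 6.29 in aged mice, so a change could not be judged (0.61, SE 0.50). Genes of the excitatory synapse had 19 of 25 differences below 0 (against 8539 of all 18955 genes), a median of -0.07 and no call. A p that misses the threshold does not show that these genes were equal at both ages.

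Other strains were used to ask whether these age differences recur in hypothalamus. CBA males (7 of 2-3 months, 5 of 12-13 months, 8 of 21-23 months) were measured on another version of the array, and C57BL6/J males, C57BL/6 in the study's methods (5 of 2-3 months, 5 of 22-24 months), on the same one. Strain and cohort of arrays cannot be told apart. On their own, 82 genes passed in CBA (0.415% of those tested) and 34 in C57BL/6 (0.142%). Of the 173 BALB genes, 144 were measured in CBA and 134 of these had the same sign there, against 58.4% of all genes. In C57BL/6 the sign was shared by 137 of 172, against 53.6%. The higher genes gave 127 of 134 in CBA and 128 of 158 in C57BL/6, and the lower genes 7 of 10 and 9 of 14. Among the genes that rose in BALB, the median difference was 0.43 in CBA (0.70 in BALB for the same genes) and 0.20 in C57BL/6 (0.71 in BALB). These genes were chosen by their BALB differences, so smaller values in another cohort would follow even from equal true differences. The medians therefore do not show a weaker change in those strains.

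**Figure D5:**
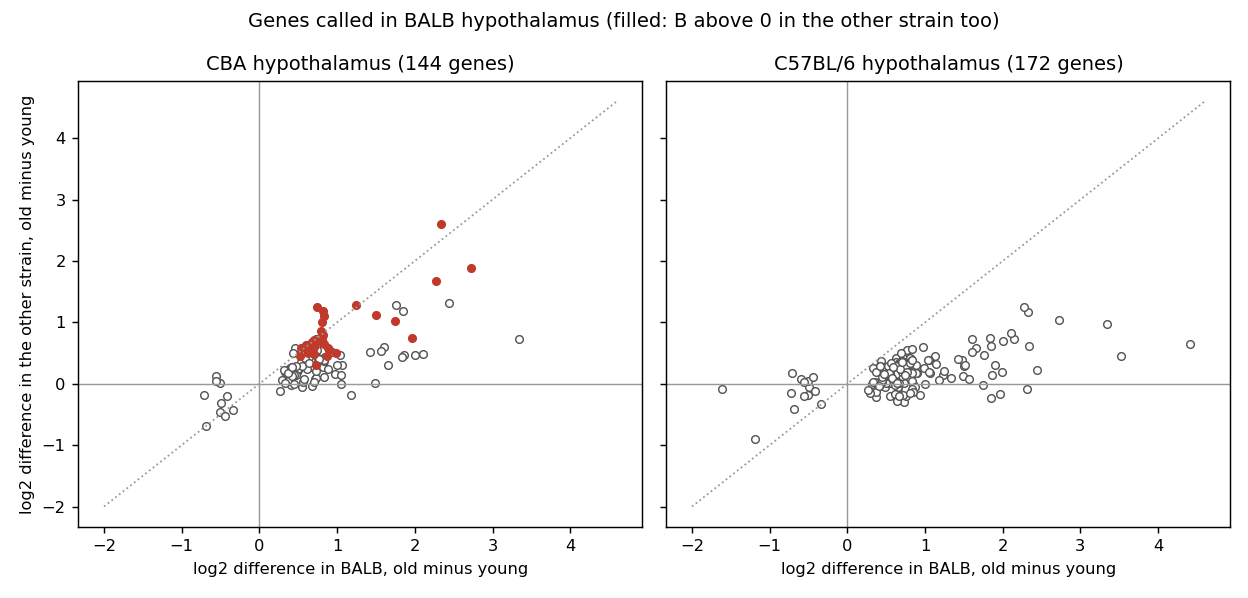
Log2 difference, aged minus young, in CBA (left) and C57BL/6 hypothalamus (right, vertical axes) against that in BALB (horizontal axes), 1 point per gene called in BALB. Filled points passed in the other strain too and the dotted line marks equal differences. Points lie mostly above 0 and below that line on the right of each panel, with medians of 0.43 and 0.20. The genes were chosen by their BALB differences, which by itself favors points below the line.

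BALB and CBA shared 34 called genes, of 145 BALB genes tested in CBA and of the 82 that passed in CBA. C57BL/6 shared 0 of 172, where 1180 genes had an unadjusted p under 0.05. Among those shared with CBA were C3 (0.74 in CBA), C4b (1.25), Itgax (1.89), Ccl4 (2.60), Mpeg1 (0.58) and Fcgr2b (0.69), the protocadherins Pcdhb2 (1.29), Pcdhb3 (0.45) and Pcdhb14 (0.60), and Ucn (1.67). The 34 also held MHC class I genes such as H2-D1, H2-K1 and several of the H2-Q group. Probes of near-identical family members may read the same transcripts, so the counts of called and shared genes may hold repeated readings of a signal. The lists were not compared with each other by a test. Complement had a median of 0.17 with 3 calls in CBA, Fc receptors and ITAM adaptors 0.27 with 2, microglial lesion genes 0.06 with 2, and reactive astrocyte genes -0.02 with none. No gene of these 4 lists passed in C57BL/6, where the medians were 0.13, 0.23, 0.27 and 0.11.

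The differences between strains were tested as such, in a fit over both cohorts. No gene of 17633 passed for an age difference unlike that of CBA (B above 0 for 0 genes, 757 with an unadjusted p under 0.05, 0 after adjustment in limma). This does not show that the age differences were equal. C3 gave a difference of 1.38 between the strains (SE 0.25, adjusted p = 0.0957) and Lyz2 gave 1.71 (adjusted p = 0.58). For C57BL/6, 4 of 18938 genes passed by B (0.0211%), 0 by adjusted p and 1142 by unadjusted p. These were C3 (2.09, SE 0.44), which rose in BALB and gave -0.17 in C57BL/6, Gpr4 (-1.43), Ptdsr (0.64) and Syt9 (-0.65). The counts depended on single arrays: without young array 1, 17 genes passed against CBA and 31 against C57BL/6, and without aged array 6, 40 passed against C57BL/6. Of 10 thalamus markers, 6 passed with age in C57BL/6 (median 1.19) and none in CBA (median 0.11), and their part in the C57BL/6 comparison was not tested.

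The peptide genes were also measured in the other strains. Npvf gave -0.90 in C57BL/6 (SE 0.36, adjusted p = 0.997) and was too dim to test in CBA. Gnrh1 gave -0.88 in C57BL/6 and 0.17 in CBA. Npy gave 0.65 in CBA (SE 0.18, adjusted p = 0.234) and -0.08 in C57BL/6 (SE 0.15). None of these values passed, so only their signs can be set beside the BALB values. Of the 10 lower genes measured in CBA, 7 were below 0 there, none called, among them Krt15 (-0.69), Scai (-0.52), Brca1 (-0.45) and Apcdd1 (-0.42). Sfmbt2 (0.12), TC1536100 (0.04) and Gpr139 (0.01) were above 0. In C57BL/6, 9 of the 14 lower genes were below 0, but Scai (0.11) and Brca1 (0.04) were not. Among all genes the sign was shared by 58.4% in CBA and 53.6% in C57BL/6.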

How the data were processed

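Single-color arrays of 7 young, 5 middle-aged and 6 aged BALB hypothalami were analysed, grouped by their labels. The authors deposited Agilent scanner files, whose spot intensity (gProcessedSignal) is linear and background-subtracted, and a set of log2 values, whose 18 BALB hypothalamus columns each matched their own scanner file. The other 86 columns of these deposited log2 values were not used. From the files, control spots and outlier spots were left out, deposited intensities were put on the log2 scale, spots of 1 of the 41174 probes were averaged, and arrays were quantile normalized, which removes a shift shared by all genes. A probe was tested if well above background on at least 6 of the 13 aged and young arrays. The number of arrays limits the precision.

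Differences were fitted with limma 3.58.1 (lmFit, eBayes, prior proportion 0.01, statmod 1.5.0, R 4.3.3) over the 3 ages. A gene was called at B above 0 for any probe and is given by its brightest tested probe, and adjusted p-values are Benjamini-Hochberg over all probes. Bounds set the aged mean against each young array's detection floor, the faintest probe that stood above background there. Other strains were fitted alike, and strain differences as an interaction after joint normalization. On simulated data for this comparison (27625 probes), 149 of 200 changed probes were recovered (74.5%), with 8 false calls. The simulation drew independent normal noise for each probe, without outlying arrays or effects of slide or day. Most planted differences were larger than the median called size here, so these rates may not hold for the real arrays.

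The members, lists and tests were chosen with earlier results of these data known. Named genes are, per list, at most 8 called members by size and at most 4 others, brightest first, any peptide or appetite receptor, the 15 largest risers with separated ages first, all lower genes, and at most 10 genes that differ between strains. Il33, Cebpd, Ucn and the protocadherins were chosen after their values were seen, as were homeostatic microglia markers and undetected defining markers. Alternatives were another scaling, background correction, signal column, filter, set of arrays, block, weights, call rule and the authors' log2 values, and leaving out each aged or young array. Scan day as a block, and leaving out young array 1 with aged array 2, were added after seeing the data.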

Additional observations from a re-analysis of the deposited data

Results flagged for a closer look

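In 24 of 266 groups of a named gene's arrays (9.02%), 1 array lay far from the others by Dixon's test, which chance gives for about 1 in 20. Young array 1 stood out for 8 genes: it was high for Agrp (10.15), Psmb8 (10.83), Psmb9 (10.74) and LOC669759 (7.46) and low for Itgax (4.12), Ccl4 (2.64), Sfmbt2 (7.26) and Pcdhb2 (4.47). Aged array 2 was high for Pomc (18.12), Sst (15.19), Lamp2 (12.67) and Cldn7 (8.88) and low for Atf3 (7.82). Aged array 1 was high for Itgax (8.77) and Mpeg1 (13.30), aged array 3 for Pcdhb2 (7.31) and aged array 5 for Agrp (11.35). Young array 2 was low for Hcrt (15.17) and Lamp2 (11.78). Among middle-aged arrays, array 3 was low for Cfi (3.77) and high for Fcer1g (10.50), array 5 was low for Cd74 (9.01), array 1 was high for TC1536100 (7.27) and array 2 was high for Pcdhb14 (9.27).

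The age difference in BALB minus that in C57BL/6 had B above 0 for 4 genes, each with an adjusted p of 0.528 in limma. It was 2.09 for C3 (1.92 in BALB and -0.17 in C57BL/6), -1.43 for Gpr4 (-0.28 and 1.15), 0.64 for Ptdsr (0.28 and -0.35) and -0.65 for Syt9 (-0.13 and 0.52).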

How the results depend on the processing

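No called gene with values under the alternatives changed direction. Of the named genes that were not called, Pomc (0.54, -0.10 without aged array 2 and -0.09 without young array 1 and aged array 2), Pmch and Cartpt changed sign, and so did the medians of 17 gene lists under at least 1 alternative, meninges among them (0.27, and -0.06 with scan day as a block). The counts of called and higher genes stayed within 1.5 times of 173 and 159 in all fits, from 124 to 219 and from 115 to 194 with an array left out (the lowest without aged array 4, the highest without young array 1). Of the 173 genes, 117 to 150 remained called with an array left out, and 116 to 170 under the other alternatives. The lower genes were less stable: in place of 14, there were 8 with normexp, 5 with spot medians, 9 with only the aged and young arrays, 34 with slide as a fixed block, 27 with array weights, 7 in the authors' log2 values, 8 at an adjusted p under 0.05, 8 to 25 with an array left out (25 without young array 1), and, in fits added after seeing the data, 22 with scan day as a block and 26 without young array 1 and aged array 2. Genes whose age difference was unlike that of C57BL/6 numbered 2 with each cohort normalized alone, 0 without a filter on dim probes, 28 with slide as a random block and 0 to 40 with an array left out, compared with 4. For CBA they numbered 0 to 17 with an array left out, compared with 0. The causes were not tested. For single named genes, 2091 values kept their side of the threshold, 281 lost the call and 15 gained it, and for gene lists 239 of the counts and medians moved and 2353 did not.

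Replicate numbers did not pair the samples: same-numbered deviations correlated from -0.05 to 0.41, and 2 of 6 aged arrays correlated best with their own number. With the replicate number as a block, 133 genes were called (126 higher, 7 lower), 0 passed for a difference from C57BL/6 and 0 from CBA, and Brca1 did not pass (-0.53, adjusted p = 0.173). Signal over background limits Gpnmb, Cxcl13, Rgs1, Cybb, Cfi, Lrat and Ucn. Dim young signals also leave the sizes for Ccl8, Ccl4 and Il1b less certain.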

Other observations

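Several gene groups of brain aging had no called member in BALB hypothalamus. This held for 37 genes of the mitochondrial respiratory chain (median difference 0.03), 22 of cholesterol synthesis (-0.07, with 17 below 0), 27 collagens and matrix genes (-0.02), 22 genes of immature neurons and cell division (-0.09), 16 of senescence and DNA damage (0.08) and 23 of antioxidant defense and metal binding (0.12). The same was true of 14 markers of oligodendrocyte precursors (-0.06), 11 of tanycytes and ependyma (-0.06) and 15 of endothelium (0.14). Immediate early genes, which neuronal activity induces, had a median of 0.26 and 0 of 17 called, and lipid transport genes had 16 of 19 differences above 0, a median of 0.22 and none called. Of all 18955 genes tested, 10416 had a difference above 0 and 8539 below 0.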
